A study of Mus musculus with 18 samples.

Results

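Sarcomeres, the contractile units of striated muscle, are held together by a protein scaffold, and 35 genes of that scaffold were followed in cultured mouse satellite cells with and without the transcription factor Hoxa10. The genes were taken as a fixed list of symbols and looked up in a table of gene counts, where 35 of the 35 were found among 50689 features. They were divided by role into thin filament proteins (8 genes), titin and its cap (2), thick filament and M-band proteins (7), proteins in and around the Z-disc (16) and myosin chaperones (2). All 18 libraries were RNA-seq of satellite cells, the resident stem cells of skeletal muscle, taken from the tibialis anterior of C57BL6 mice and grown in growth medium on dishes coated with matrigel.

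The 9 control libraries came from Hoxa10f/f cells, which carry floxed Hoxa10 alleles and no Cre. The 9 scKO libraries came from Pax7-CreERT2/+;Hoxa10f/f cells, in which a tamoxifen-inducible Cre is driven from Pax7, a gene that marks satellite cells. The scKO cells received 4-hydroxytamoxifen at 1 µM for 2 days, and the labels do not say whether the control cells received it, so the Cre allele, the drug and the loss of Hoxa10 cannot be told apart. The floxed alleles were shared by both groups. No label ties a library to its own animal or culture, so the p-values measure the spread between these libraries, which may be technical.

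In a sarcomere, actin thin filaments are anchored in the Z-disc and slide past myosin thick filaments, which are cross-linked at the M-band, while titin spans the distance from Z-disc to M-band. Nebulin and the leiomodins govern thin filament length, alpha-actinins cross-link actin in the Z-disc, myomesins link thick filaments and titin at the M-band, and chaperones fold the myosin heads. Most of these genes are switched on when myoblasts leave the cell cycle and differentiate, so in dividing satellite cell cultures their RNA is commonly read as a sign of how many cells have begun to form muscle.

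The libraries fell into depth classes that cut across genotype. Totals of over 2000000 counts were found in 5 deep libraries (control 1 and 2, scKO 6, 7 and 9), and the 13 shallow libraries held 420197 to 968559 counts. Hoxa10, the targeted gene, was lower in scKO in both classes: 36.7 and 38.5 CPM (counts scaled to a library total of 1000000) in the deep controls against 6.63 to 10.02 in deep scKO, and 14.9 to 64.7 in shallow controls against 1.89 to 4.81 in shallow scKO, the last from 1 to 3 counts a library. No count in any library exceeded 4096, which is the number of different tags that 6 bases can make. The tag length is not given in the sources used here and was assumed from this maximum, and every value corrected for shared tags rests on that assumption. CPM values are compared within a depth class only. Of the 13 shallow libraries, 4 (control 7, control 8, control 9 and scKO 1) lay apart on the second principal component of all 18, which held 14.1% of the variance. These 4 libraries held the 4 highest shallow values of 6 members (Des, Mybph, Nrap, Pdlim3, Smyd1 and Ttn) and the 4 lowest of 2 (Mypn and Unc45b). Markers of the labelled cell type were present. The summed level of 9 satellite cell and myoblast genes was 1755 to 2193 CPM in deep controls and 1743 to 1944 CPM in deep scKO.

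In the deep libraries most of the scaffold genes were higher in scKO. Of 34 members tested (Mybpc2 had too few counts), 24 rose and 0 fell (edgeR quasi-likelihood test, adjusted p under 0.05), where 7.31% of all 13136 genes tested rose and 7.03% fell. The median log2 fold change of the members was 0.60, and that of all genes tested was -0.00. In the shallow libraries 0 of 31 members tested changed, where 0.029% of 6906 genes rose and 0.0145% fell. In that class 14 members had positive and 17 negative fold changes, with a median of -0.01, 3 members had an unadjusted p under 0.05, and DESeq2 and limma-voom also called 0. With all 18 libraries in 1 fit that held depth class as a term, 2 of 32 members rose (Myom2 and Cmya5) and 0 fell, where 0.326% of 7662 genes rose and 0.679% changed in either direction. RNA from whole cultures cannot tell fewer cells of a type from less RNA per cell.

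**Figure D1:**
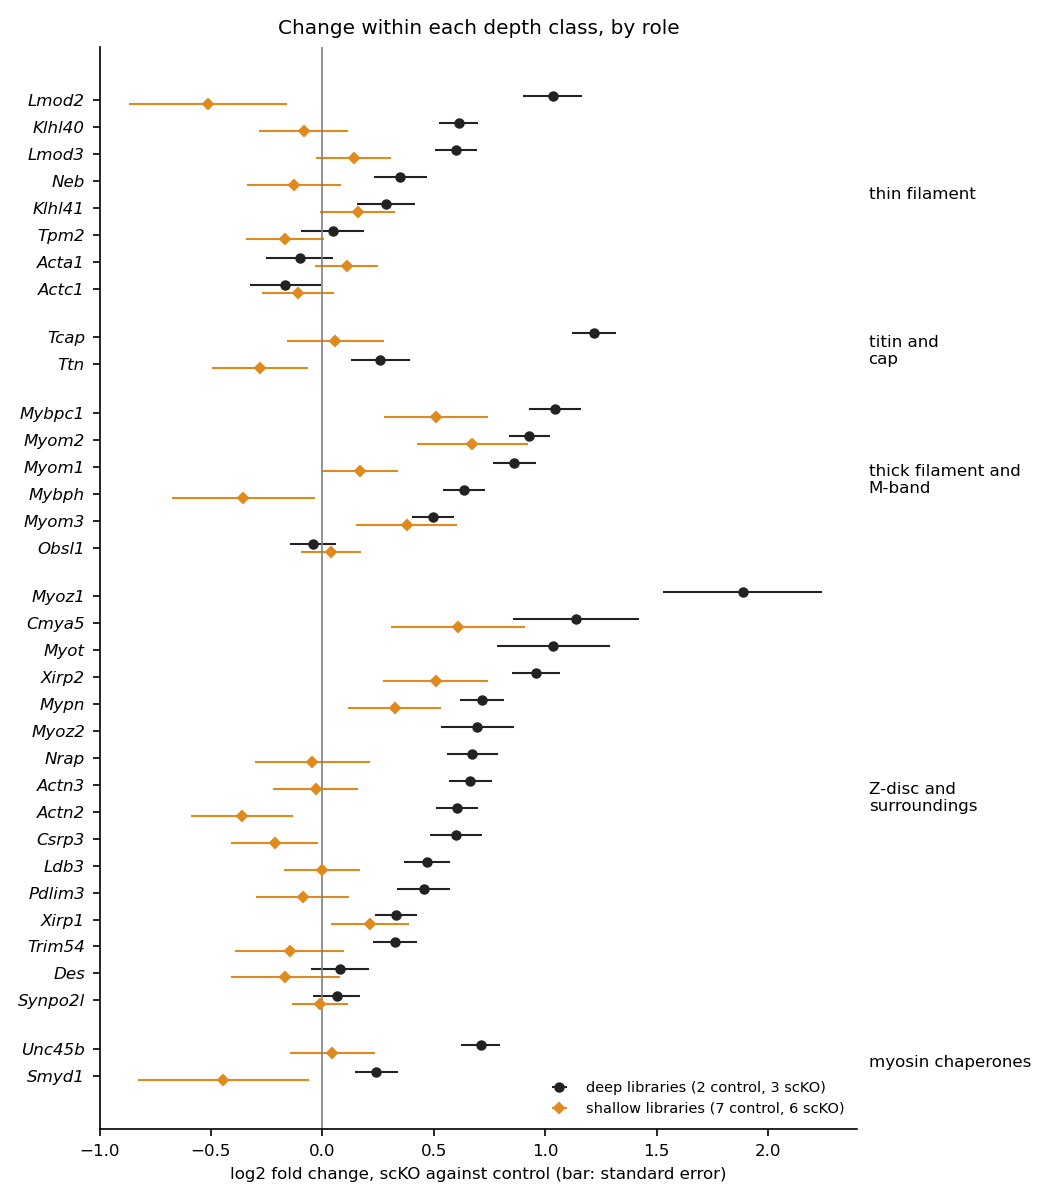
Log2 fold change (x axis, scKO against control) of each tested member, by role, with bars of 1 standard error, in the deep libraries (circles, 2 control and 3 scKO) and the shallow libraries (diamonds, 7 control and 6 scKO). Deep values run from -0.17 to 1.88 with a median of 0.60, and shallow values lie on both sides of 0 with a median of -0.01.

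Levels in CPM, which use scaled library totals, were also compared directly in the same libraries. Of the 35 members, 28 had all 3 deep scKO libraries above both deep controls, 0 had them below, and 7 overlapped, while 24.1% of the 13136 genes tested had scKO wholly above control and 21% wholly below. An exact permutation test of 2 libraries against 3 cannot give a two-sided p below 0.1. In the shallow class 0 of 35 members separated the groups, where 0.217% of 6906 genes had scKO wholly higher. The ratio of mean levels, scKO over control, had a median of 1.54 over the 35 members in deep libraries (0.898 to 3.67) and of 1.00 in shallow libraries (0.659 to 1.71).

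Of the 8 thin filament genes, 3 rose in the deep libraries as counted, where 7.31% of all 13136 genes tested rose. After counts were corrected for tags shared by chance, 7 passed the test, where 8.18% of all genes were called higher. Among them Acta1 and Tpm2 lay near the ceiling of 4096 counts, so their corrected values are uncertain. Lmod2, the leiomodin that elongates thin filaments at their pointed ends, stood at 22.8 and 22.1 CPM in the deep controls and at 40.6, 49.2 and 49.1 CPM in deep scKO. The knockout libraries were about level with one another and all above the controls, and the gene rose by 1.03 on the log2 scale (SE 0.13, edgeR adjusted p = 0.000477). In shallow libraries the order of the medians was the opposite: Lmod2 ran from 15.1 through a median of 27.9 to 69.9 CPM in control and from 16.6 through 18.8 to 35.3 CPM in scKO, and the ranges overlapped (log2 fold change -0.51, SE 0.35). Its spread among the shallow controls, an SD of 0.84 on the log2 scale, was the widest of the members in that group.

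Lmod3, the skeletal muscle leiomodin, was measured at 158 and 154 CPM in deep controls and at 237, 229 and 251 CPM in deep scKO. Klhl40, a kelch protein that stabilises nebulin and leiomodin 3, was at 106 and 113 CPM in deep controls and at 173, 169 and 164 CPM in deep scKO. The log2 fold changes of Lmod3 and Klhl40 were near alike, 0.60 (SE 0.10) and 0.61 (SE 0.09), and both genes passed the test (edgeR adjusted p = 0.00148 and 0.000787). In shallow libraries Lmod3 had 262 to 399 CPM in control (median 297) and 255 to 479 in scKO (median 364), and Klhl40 had 390 to 908 (median 644) and 352 to 681 (median 630). Neither gene separated the shallow groups. An antisense gene, Gm47108, shares 20.0% of the 50-base words of Klhl40, and strand use in counting is not given in the sources used here.

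The 5 other thin filament genes did not pass the test in deep libraries. Actc1, the cardiac actin that immature skeletal muscle also makes, sat at 4096 counts in all 5 deep libraries, so its deep levels (719 and 481 CPM in control, 547, 504 and 565 CPM in scKO) follow the library totals alone. Acta1, skeletal alpha-actin, was nearly as close to the ceiling, at 3844 and 3985 counts in control and 4080, 4078 and 4074 in scKO. Tpm2, a tropomyosin, had 572 and 423 CPM in deep controls and 526, 485 and 542 CPM in deep scKO. The log2 fold changes of Actc1, Acta1 and Tpm2 were -0.17, -0.10 and 0.05. Neb, which encodes nebulin, and Klhl41, a kelch protein of the nebulin complex, were wholly higher in deep scKO, at 303, 280.04 and 331 CPM against 262 and 213 CPM for Neb and at 437, 408 and 464 CPM against 400.5 and 310.2 CPM for Klhl41. Their log2 fold changes of 0.35 and 0.28 missed the threshold (edgeR adjusted p = 0.0677 and 0.164). Some shallow libraries also came near the ceiling, and the highest shallow count was 98.6% of it for Actc1, 62.2% for Tpm2 and 52.2% for Acta1. In shallow libraries Acta1 had 1759 to 2868 CPM in control (median 1955) and 2021 to 2572 in scKO (median 2491). Actc1 had 4702 to 9291 CPM in control (median 6299) and 4555 to 7598 in scKO (median 6226), and Tpm2 had 2385 to 4701 CPM in control (median 3049.6) and 2554 to 3765 in scKO (median 2966). The shallow groups overlapped for each of them.

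**Figure D2:**
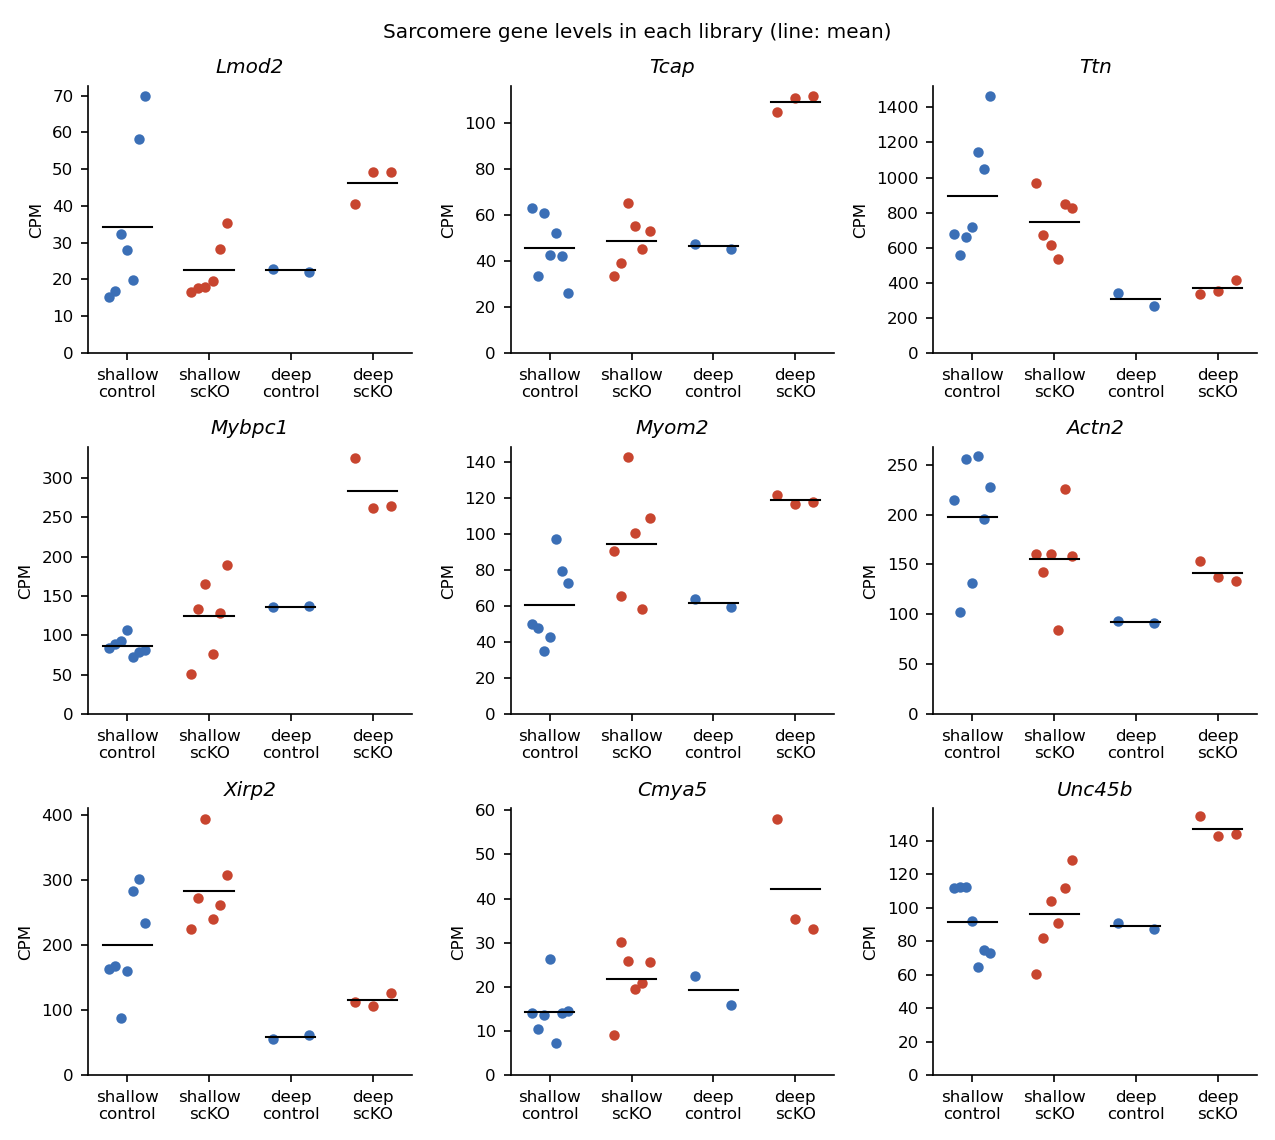
Levels of 9 members in CPM on linear axes from 0, with 1 point for each library, columns for depth class and group, and a line at each group's mean. In the deep class the scKO points of Lmod2, Tcap and Mybpc1 lie above both controls, those of Ttn do not, and in the shallow class the groups overlap for each gene shown.

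Of titin and its cap, the cap alone passed the test in deep libraries. Ttn, the giant elastic protein that runs from Z-disc to M-band, had 340 and 271 CPM in deep controls and 337, 351 and 417 CPM in deep scKO. The scKO 6 value lay just below the higher control, and the fold change missed the threshold (log2 0.26, SE 0.13, edgeR adjusted p = 0.215). In shallow libraries Ttn had 559 to 1462 CPM in control (median 717) and 534 to 969 in scKO (median 750.0), with overlap (log2 fold change -0.28, SE 0.22). The deep Ttn value depended on the controls: it was 0.42 without control 1 (edgeR adjusted p = 0.0491) and 0.11 without control 2 (edgeR adjusted p = 0.618). With counts corrected for shared tags it was 0.52 (edgeR adjusted p = 0.0511). Tcap, the telethonin that joins titin ends at the Z-disc, stood at 47.6 and 45.4 CPM in deep controls and at 105, 111 and 112 CPM in deep scKO. That was 2.35 times the control mean, with the smallest adjusted p of all members (log2 fold change 1.22, SE 0.10, edgeR adjusted p = 3.97e-05). In shallow libraries Tcap had 26.2 to 62.8 CPM in control (median 42.7) and 33.3 to 65.4 in scKO (median 49.2), ranges that nearly coincide (log2 fold change 0.06, SE 0.22).

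Of the M-band and thick filament genes, 5 of 6 tested rose in the deep libraries, where 7.31% of all genes tested rose. Myom1, Myom2 and Myom3 encode the myomesins, which bridge thick filaments in the M-band. Myom1 was at 99.1 and 101 CPM in deep controls against 199, 171 and 180 CPM in deep scKO (log2 fold change 0.86, SE 0.10, edgeR adjusted p = 0.000217). Myom3 was at 173 and 161 CPM against 236, 242 and 236 CPM (0.50, SE 0.09, edgeR adjusted p = 0.00388). The knockout levels of both genes exceeded the controls in each deep library, and in shallow libraries they overlapped, with Myom1 at 164 to 297 CPM in control (median 231) and 174 to 305 in scKO (median 279), and Myom3 at 207 to 596 (median 357) and 331 to 679 (median 443).

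Myom2, the M-protein of fast fibres, was a member that rose both in the deep fit and with all libraries together. Its deep levels were 64.1 and 59.7 CPM in control and 122, 117 and 118 CPM in scKO. Its shallow levels ran from 35.2 through a median of 50.04 to 97.1 CPM in control and from 58.7 through 95.7 to 143 CPM in scKO. The deep groups were far apart and the shallow groups overlapped with the knockouts mostly on the high side. The log2 fold change was 0.93 in deep libraries (SE 0.09, edgeR adjusted p = 0.000158), 0.67 in shallow (SE 0.25, edgeR adjusted p = 0.729) and 0.78 with all libraries (SE 0.18, edgeR adjusted p = 0.0434). The last call was lost when control 1 to 6 or scKO 3, 4 or 6 to 9 was left out, 12 of the 18 such fits, with fold changes of 0.69 to 0.78 and edgeR adjusted p from 0.0525 to 0.167. The gene lies on the plus strand of chromosome 8 (15057653 to 15133541, GENCODE M21).

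Mybpc1, the slow myosin-binding protein C, and Mybph, the related protein H, lie along the thick filament. Mybpc1 had 136 and 137 CPM in deep controls and 326, 262 and 265 CPM in deep scKO (log2 fold change 1.04, SE 0.12, edgeR adjusted p = 0.000217). In shallow libraries it had 71.9 to 107 CPM in control (median 83.8) and 51.5 to 189 in scKO (median 131), with 4 of 6 knockouts above the highest control. The shallow fold change was 0.51 (SE 0.23, edgeR adjusted p = 0.8). Mybph had 146 and 143 CPM in deep controls and 236, 213 and 231 CPM in deep scKO (0.63, SE 0.09, edgeR adjusted p = 0.000936), but the opposite order of medians in shallow libraries, 542 CPM in control (184 to 752) and 338 CPM in scKO (264 to 660). Adora1, on the other strand, shares 43.9% of the 50-base words of Mybph.

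Mybpc2, the fast myosin-binding protein C, was hardly read: 2 and 3 counts in deep controls, 5, 9 and 11 in deep scKO, and 0 to 1 in shallow libraries. Obsl1, a cytoskeletal adaptor of the M-band, did not move with its neighbours, at 238 and 209 CPM in deep controls and 206, 217 and 235 CPM in deep scKO. The groups overlapped (log2 fold change -0.04, SE 0.10, edgeR adjusted p = 0.838).

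The Z-disc group held the most calls, with 14 of 16 higher in deep libraries, where 7.31% of all genes tested rose. The median log2 fold change of the group was 0.63. The exceptions were Synpo2l, an actin-associated protein of the Z-disc (0.06), and Des, which encodes desmin, the intermediate filament around it (0.08). Synpo2l was at 286 and 244 CPM in deep controls and 289, 273 and 276 CPM in scKO. Des was at 492 and 394 CPM and at 479, 441 and 496 CPM.

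The alpha-actinins Actn2 and Actn3 cross-link thin filaments in the Z-disc. Actn2 had 93.6 and 90.8 CPM in deep controls and 154, 138 and 133 CPM in deep scKO (log2 fold change 0.60, SE 0.09, edgeR adjusted p = 0.00117). Actn3, the fast-fibre form, had 161 and 160 CPM and 265, 247 and 256 CPM (0.66, SE 0.10, edgeR adjusted p = 0.000787). Both actinins were clearly split by group there, and in shallow libraries both had overlapping ranges, with Actn2 at 102 to 259 CPM in control (median 214) and 84.4 to 225 in scKO (median 159), and Actn3 at 317 to 669 (median 426) and 299 to 555 (median 474). At most 0.07% of the 50-base words of either were shared with another gene.

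Myozenins tether calcineurin to the Z-disc. Myoz1, the fast-fibre form, had the highest fold change of the members in deep libraries, from few counts: 9 and 10 in control and 47, 42 and 27 in scKO, or 1.58 and 1.17 CPM against 6.28, 5.17 and 3.73 CPM (log2 fold change 1.88, SE 0.36, edgeR adjusted p = 0.00393). It had 0 to 4 counts in shallow libraries, too few to test. Myoz2, the slow and cardiac form, had 12.5 and 12.6 CPM in deep controls and 23.4, 20.4 and 17.7 CPM in deep scKO (0.70, SE 0.17, edgeR adjusted p = 0.013). Myot, which encodes the actin-bundling myotilin, had 4.92 and 6.92 CPM and 16.6, 10.5 and 10.6 CPM (1.03, SE 0.25, edgeR adjusted p = 0.016). All 3 genes were low, and their deep groups did not overlap. In shallow libraries Myoz2 had 4.92 to 26.2 CPM in control (median 11.6) and 1.51 to 18.9 in scKO (median 11), and Myot had 1.29 to 6.76 CPM in control (median 3.6) and 3.24 to 9.46 in scKO (median 6.94), with overlap in both, and neither was tested there. Without control 1 the Myot call was lost (0.83, edgeR adjusted p = 0.0925).

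Xirp1 and Xirp2 encode the Xin actin-binding repeat proteins, found where myofibrils are assembled or repaired. Xirp2 stood at 55.7 and 60.8 CPM in deep controls and 112, 106 and 126 CPM in deep scKO (log2 fold change 0.96, SE 0.11, edgeR adjusted p = 0.000226). Its shallow levels were 87.9 to 301 CPM in control (median 168) and 224 to 393 in scKO (median 267), with 6 of 6 knockouts above the control mean (0.51, SE 0.23, edgeR adjusted p = 0.8). Xirp1 moved less, with 96.6 and 91.9 CPM in deep controls and 116, 113 and 130 CPM in deep scKO (0.33, SE 0.10, edgeR adjusted p = 0.0352). In shallow libraries 4 of 6 Xirp1 knockout values, which ran from 50.3 to 71.1 CPM with a median of 66.1, exceeded the highest control (39.6 to 65.6, median 56.8). The deep call of Xirp1 was lost without control 1, control 2, scKO 7 or scKO 9 (0.26 to 0.37, edgeR adjusted p from 0.0700 to 0.126).

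Cmya5, or myospryn, a large scaffold that binds desmin at the edge of the Z-disc, was the second member to rise with all libraries in the fit (log2 fold change 0.91, SE 0.22, edgeR adjusted p = 0.0475). It stood at 22.5 and 16.0 CPM in deep controls and at 58.0, 35.3 and 33.1 CPM in deep scKO (1.14, SE 0.28, edgeR adjusted p = 0.0374). In shallow libraries it ran from 7.19 through a median of 14.0 to 26.3 CPM in control and from 9.08 through 23.2 to 30.2 CPM in scKO. The highest deep value, scKO 6, was well above the other two knockouts, and the shallow groups overlapped (0.61, SE 0.30, edgeR adjusted p = 0.822). The call with all libraries was lost when control 1 to 5, control 9 or scKO 2, 3 or 5 to 9 was left out, 13 of the 18 such fits, with fold changes of 0.73 to 0.94 and edgeR adjusted p from 0.0546 to 0.264. The deep call was lost without control 1 (1.37, edgeR adjusted p = 0.132) or control 2 (0.89, edgeR adjusted p = 0.259). Cmya5 lies on the minus strand of chromosome 13 (93040713 to 93144724, GENCODE M21), and A630019I02Rik on the other strand shares 18.9% of its 50-base words.

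Mypn, Nrap and Csrp3 encode proteins that bind several Z-disc partners. Mypn, the titin- and nebulin-binding myopalladin, had 103 and 89.7 CPM in deep controls and 157, 153 and 169 CPM in deep scKO (log2 fold change 0.72, SE 0.10, edgeR adjusted p = 0.000595). Nrap, an anchoring protein of assembling myofibrils, had 52.2 and 46.6 CPM and 70.2, 82.2 and 85.3 CPM (0.67, SE 0.12, edgeR adjusted p = 0.00224). Csrp3, the muscle LIM protein, had 66.6 and 74.3 CPM and 125, 99.3 and 100.1 CPM (0.60, SE 0.12, edgeR adjusted p = 0.00444). In each of them all 3 deep knockouts were above both controls. In shallow libraries Mypn had 53.6 to 115 CPM in control (median 86.1) and 51.5 to 143 in scKO (median 107). Nrap had 33.5 to 98 CPM in control (median 54.1) and 40.6 to 77.2 in scKO (median 57.8) there, and Csrp3 had 121 to 266 CPM in control (median 245) and 125 to 257 in scKO (median 201). The shallow medians leaned to scKO for Mypn and Nrap and to control for Csrp3, and the ranges overlapped. The fitted shallow fold changes were 0.32 for Mypn, -0.05 for Nrap and -0.21 for Csrp3, so the sign for Nrap differed from its medians.

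Smaller deep differences were found for 3 more. Ldb3, or cypher, a PDZ-LIM protein that binds alpha-actinin, had 254 and 252 CPM in deep controls and 351, 352 and 359 CPM in deep scKO (log2 fold change 0.47, SE 0.10, edgeR adjusted p = 0.00899). Pdlim3, a PDZ-LIM protein of the same class, had 276 and 222 CPM and 363, 324 and 346 CPM (0.45, SE 0.12, edgeR adjusted p = 0.0208). Trim54, a RING-finger protein that binds titin and microtubules, had 56.6 and 60.4 CPM and 76.6, 73.6 and 72.5 CPM (0.33, SE 0.10, edgeR adjusted p = 0.0403). All 3 had each deep knockout above both controls. In shallow libraries Ldb3 had 240.0 to 415 CPM in control (median 305) and 238 to 350.2 in scKO (median 345). Pdlim3 had 323 to 815 CPM in control (median 598) and 386 to 763 in scKO (median 548), and Trim54 had 49 to 141 CPM in control (median 59.3) and 45.4 to 96.5 in scKO (median 68.3). These ranges overlapped, and the shallow fold changes were -0.00, -0.09 and -0.15. These deep calls did not all hold when a library was left out. Ldb3 lost its call without scKO 7 or scKO 9 (edgeR adjusted p = 0.0519 and 0.0501), Pdlim3 without any 1 of the 3 knockouts (0.0601 to 0.0756), and Trim54 without any 1 of the 5 libraries (0.0616 to 0.186). Gm15469 on the other strand shares 18.4% of the 50-base words of Trim54.

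The myosin chaperones differed from each other in the test. Unc45b, the muscle form of the chaperone that folds the myosin motor, had 90.8 and 87.4 CPM in deep controls and 155, 143 and 144 CPM in deep scKO (log2 fold change 0.71, SE 0.09, edgeR adjusted p = 0.000407). Smyd1, a methyltransferase that works with it in thick filament assembly, had 162 and 162 CPM and 212, 178 and 191 CPM (0.24, SE 0.10, edgeR adjusted p = 0.115). For both genes all 3 deep knockouts were above both controls. In shallow libraries Unc45b had 64.7 to 112 CPM in control (median 91.9) and 60.5 to 128 in scKO (median 97.3), and Smyd1 had 197 to 908 (median 381) and 231 to 845 (median 312).

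Promoters were looked up because many members moved together in deep libraries, and 27 of the 35 members had a RefSeq entry (GRCm38.p6) of 250 bases before to 50 after the annotated start. The sequence CAGCTG, an E-box of the kind bound by the myogenic factors, was found on either strand in 14 of the 27 genes. By window it was in 14 of their 30, where 16.3% of 32851 windows of the same table hold it. Its genes include Acta1, Des, Klhl41, Obsl1, Synpo2l and Tpm2, which were not called in deep libraries as counted. The looser CANNTG, which includes CAGCTG, was in 25 of 27 genes (27 of 30 windows, against 72.3% of all windows). The motif of MEF2 factors was in 6 genes (7 of 30 windows, against 3.19%) and a CArG box in 4 (5 of 30, against 1.63%). The MCAT element GGAATG was in 7 genes (7 of 30 windows, against 14.7%). The 250 bases before the start are printed for Mybpc1 and Xirp2, the called members with the smallest deep p among those with a CAGCTG or a MEF2 match there and no exon of their own, and for Cmya5, which was called with all libraries. They are given 5′ to 3′ on the gene's strand with the match in capitals. The Mybpc1 window (chr10:88605153-88605402, minus strand) holds CAGCTG 87 bases before the start and overlaps an exon of Gm48752, the Xirp2 window (chr2:67445752-67446001, plus strand) holds a MEF2 match 74 bases before it, and the Cmya5 window (chr13:93144725-93144974, minus strand) holds CANNTG 145 bases before it.
Mybpc1: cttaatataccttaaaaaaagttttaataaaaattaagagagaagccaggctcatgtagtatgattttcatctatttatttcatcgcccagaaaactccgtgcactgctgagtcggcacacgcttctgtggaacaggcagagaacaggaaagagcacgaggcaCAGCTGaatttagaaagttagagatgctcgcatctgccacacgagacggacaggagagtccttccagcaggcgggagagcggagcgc
Xirp2: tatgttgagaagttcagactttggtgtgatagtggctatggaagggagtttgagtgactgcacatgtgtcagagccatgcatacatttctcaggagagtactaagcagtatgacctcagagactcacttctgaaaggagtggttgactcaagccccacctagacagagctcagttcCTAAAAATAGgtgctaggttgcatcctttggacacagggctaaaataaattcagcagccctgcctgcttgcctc
Cmya5: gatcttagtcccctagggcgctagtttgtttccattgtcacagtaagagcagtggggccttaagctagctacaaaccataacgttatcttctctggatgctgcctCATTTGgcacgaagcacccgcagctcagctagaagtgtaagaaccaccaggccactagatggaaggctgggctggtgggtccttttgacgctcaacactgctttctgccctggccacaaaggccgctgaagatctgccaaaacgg
A match of letters describes the window and is not a binding site.

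The deep and shallow fold changes were also set against each other in a single model. Of 32 members tested, 29 had the larger fold change in deep libraries, with a median difference of 0.51, where the median over all genes was 0.01. The edgeR test of that difference called 0 of 32 members, where 0.0% of 7662 genes were called, and 7 members had an unadjusted p under 0.05. Tcap differed by 1.17 (SE 0.32, edgeR adjusted p = 0.388) and Lmod2 by 1.52 (SE 0.46, edgeR adjusted p = 0.463). DESeq2 called Tcap and the fit with no count filter called Lmod2. Of the 24 members called in deep libraries, 11 had positive and 10 negative shallow fold changes, and 3 were not tested there.

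**Figure D3:**
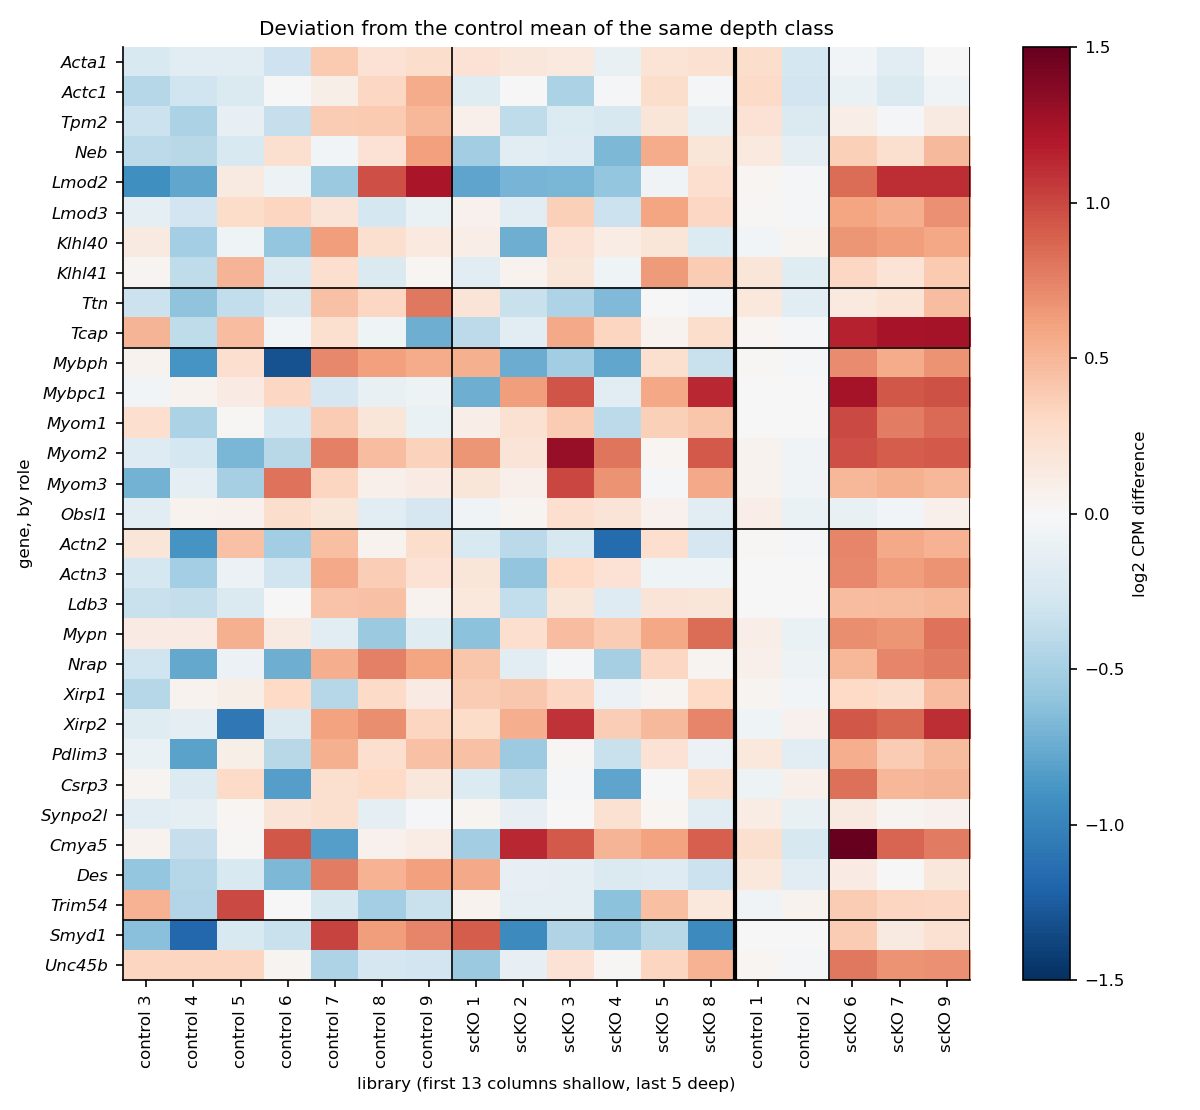
Deviation of 31 members (rows, by role) in each library (columns) from the control mean of its depth class, as a log2 CPM difference from blue (lower) to red (higher). The deep scKO columns have medians of 0.55, 0.53 and 0.50, and the shallow columns vary within each group, from -0.38 for control 4 to 0.32 for control 7.

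Spread between libraries differed by depth. The median SD of the members on the log2 scale was 0.41 in shallow controls and 0.35 in shallow scKO, and 0.08 and 0.09 in the deep groups. The median over the 6906 genes tested in shallow libraries was similar (0.41, 0.36, 0.11 and 0.09). The deep SDs rest on 2 control and 3 scKO libraries. Per library, the median deviation over 31 members was 0.55, 0.53 and 0.50 in the deep knockouts, where 28, 27 and 30 members were above the control mean. Shallow controls alone ranged over -0.38 to 0.32, and the shallow knockouts over -0.17 to 0.20.

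Without control 7, control 8, control 9 and scKO 1, the fit of the remaining libraries gave 12 members higher of 32 and 0 lower, where 3.2% of 8464 genes rose. The 12 were Actn3, Tcap, Mybpc1, Mypn, Ldb3, Myom1, Xirp2, Myoz2, Lmod2, Myom2, Cmya5 and Nrap. In the shallow libraries alone 0 members were called without those 4, but 25 of 31 fold changes were positive, with a median of 0.17. The median difference between depth classes fell from 0.51 to 0.31 without them. These libraries, mostly controls, were picked from the same data. They held the 4 highest shallow values of 6 members and the 4 lowest of 2. Leaving them out therefore shifts the shallow control levels, and the values are given as a description.

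Members with high counts were set apart by their mean count over the 5 deep libraries. Of 9 members with a mean above 2048 counts, 2 passed the test in deep libraries (Ldb3 and Pdlim3), with a median log2 fold change of 0.26. Of the 25 tested members with a lower mean, 22 passed it, with a median of 0.67, and the exceptions were Obsl1, Synpo2l and Smyd1. The mean includes the knockout libraries, so a rise in scKO also raises it, and the split is given as a description. After counts were corrected for tags shared by chance, 29 of 34 members were called in deep libraries and their median was 0.71, where 8.18% of 13136 genes were called higher. The newly called were Acta1, from -0.10 to 0.61 (edgeR adjusted p = 0.00457), Tpm2, from 0.05 to 0.67 (0.00185), Neb, from 0.35 to 0.54 (0.00768), Klhl41, from 0.28 to 0.70 (0.00195), and Des, from 0.08 to 0.42 (0.0147). Near the ceiling the correction turns small differences in counts into large ones. Acta1 had 3844 and 3985 counts in deep controls and 4074 to 4080 in deep scKO. The highest Tpm2 count was 96.2% of the ceiling. The corrected values of such members are therefore uncertain. Without control 2, with control 1 as the only deep control left, the fold changes of Acta1 and Actc1 were -0.34 and -0.43. Actc1 stood at the ceiling of 4096 counts in all 5 deep libraries, so its value follows the library totals alone. Acta1 was close to the ceiling, so its value is limited in the same way.

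**Figure D4:**
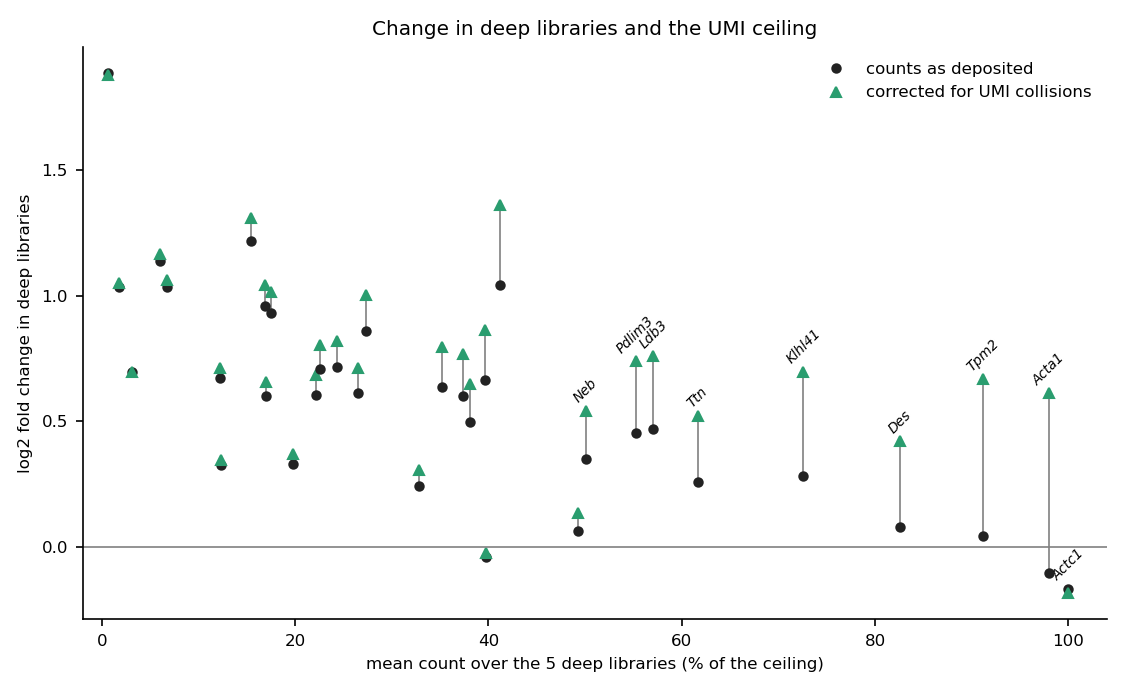
Deep log2 fold change (y axis, scKO against control) of the 34 tested members against the mean count over the 5 deep libraries as a percent of the 4096-count ceiling (x axis), as deposited (circles) and after the correction for shared tags (triangles). As deposited, the members with a mean above 2048 counts have a median of 0.26 and the others 0.67.

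Related genes outside the list were counted the same way. Among 48 other sarcomere genes, 16 of 44 tested rose in deep libraries and 0 fell (median 0.27), where 7.31% of all genes tested rose. With all libraries 0 of 38 were called by edgeR, against 1 by DESeq2. The risers included Tmod1, which caps thin filaments (log2 fold change 0.97), and Capn3, a titin-bound protease (0.82). Of 18 sarcomeric myosins and troponins, 3 rose in deep libraries (Myh4, Myh8 and Tnni2), with a median log2 fold change of 0.11, and 1 rose with all libraries. After the correction for shared tags 13 of the 18 were called in deep libraries, with a median of 0.60, where 2109 of 13136 genes were called in either direction. Corrected values of genes near the ceiling are uncertain. The gene called with all libraries, Myh4, the heavy chain of fast IIb fibres, had 19.3 to 20.5 CPM in deep controls and 56.3 to 95.7 in deep scKO, and 52.4 to 127 and 112 to 266 CPM in the shallow groups (1.34 with all libraries, edgeR adjusted p = 0.00112).

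In deep libraries markers of differentiation were mostly higher in scKO, and those of cell division were lower. Of 8 genes of differentiating myocytes, 5 rose there (Mef2c, Mymx, Ckm, Tmem182 and Cav3), where 7.31% of 13136 genes tested rose. Ckm also belongs to the other sarcomere genes counted above. The sum over the 8 was 1507 to 1776 CPM in control and 1996 to 2254 CPM in scKO. In shallow libraries 0 of the 8 passed the test, with 5 positive and 3 negative (median 0.12). The shallow sums overlapped, at 3118 to 5001 CPM in control and 3191 to 4431 CPM in scKO. With all libraries 0 of the 8 myocyte genes were called, and 7 were positive (median 0.23). Of 16 cell division genes, 13 fell in deep libraries (median -0.71), where 7.03% of all genes tested fell. Their sums were 1905 to 2208 CPM in control and 1387 to 1512 CPM in scKO, and 16 of 16 were negative. In shallow libraries 0 of 13 division genes tested passed the test, but 12 were negative (median -0.35), 5 with an unadjusted p under 0.05. With all libraries 5 of 15 fell, where 0.352% of 7662 genes fell, and 15 of 15 were negative (median -0.48). Satellite cell and myoblast markers held 1 lower gene (Myf5, -0.33) among 7 tested. Cardiac markers were at or near 0, with sums of at most 3.03 CPM in every library and Myl7 and Ryr2 at 0 in all 18. The summed level of 8 fibro-adipogenic genes did not overlap in deep libraries, at 66.2 to 83.8 CPM in control and 89.4 to 99.2 CPM in scKO. Taken singly, 24.1% of all genes tested there had scKO wholly above control. Of the 8 fibro-adipogenic genes, 5 were tested there and 0 passed the edgeR test, but 5 were positive (median 0.39), 2 with an unadjusted p under 0.05. In shallow libraries the fibro-adipogenic sums were 106 to 217 CPM in control and 96.9 to 188 CPM in scKO. Sums for 6 leukocyte genes were at most 13.6 CPM and for 6 endothelial genes at most 59.1 CPM. The 8 smooth muscle and pericyte genes include Des, which is also a member. Of these genes Myh11 rose in deep libraries (1.61), and their sums overlapped, at 1182 to 1471 CPM in control and 1226 to 1335 CPM in scKO. The part of these markers in the scaffold differences was not tested.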

How the data were processed

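RNA-seq counts for 18 libraries (9 control, 9 scKO) were taken as the authors deposited them, as whole-number counts of unique molecular tags per Ensembl mouse gene. HISAT2 and HTSeq, with the rat build Rnor_6.0, are named per the submitters' processing notes, although the identifiers are mouse; versions and strand use are not given in the sources used here. Symbols were matched for 50376 identifiers. Libraries over 2000000 counts were called deep. edgeR 4.0.16 (R 4.3.3) with filterByExpr, TMM scaling and a robust quasi-likelihood fit was used for all libraries (with depth class as a term), for each class and for the difference between classes; p-values were adjusted by Benjamini-Hochberg over all genes tested. CPM used TMM-scaled totals. DESeq2 1.42.0, limma 3.58.1, other filters, a tag-collision correction that assumes 6-base tags, a replicate block and left-out libraries were the alternatives. Named members were those called in any fit, plus those with the smallest p where a role had fewer than 2. The members and lists were chosen with earlier results of these data known. The tests were also run on simulated data with a single spread for all genes and no count ceiling. No outcome is given, and the simulation does not cover the deep calls near the ceiling.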

Additional observations from a re-analysis of the deposited data

Results flagged for a closer look

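Of 52 groups tested for a stray library, 2 had one, where about 1 in 20 is found by chance. Cmya5 in the shallow controls had 1 value, 26.3 CPM in control 6, well above the next highest of 14.6 CPM, a gap of 0.613 of the group's range. Smyd1 in the shallow knockouts had 845 CPM in scKO 1 and 335 CPM in the next highest library, a gap of 0.83 of the range. The library scKO 1 is 1 of the 4 that lay apart, which held the 4 highest shallow Smyd1 values.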

How the results depend on the processing

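Deep libraries: 24 members were called, 20 to 23 in either direction when 1 library was left out (20 without scKO 7 or scKO 9), among 996 to 1810 genes (996 without scKO 7). The fits without control 1 or control 2 keep only 1 deep control. Xirp1 and Trim54 lost their deep calls with DESeq2. Deep signs did not turn for the 26 members named by the rule, but they did for 6 of the other 9: Acta1 became 0.61 with corrected counts (edgeR adjusted p = 0.00457), and, with no call, Acta1 0.17, Actc1 0.14 and Obsl1 0.041 without control 1, Des -0.072, Synpo2l -0.042 and Tpm2 -0.15 without control 2, and Obsl1 0.0059 without scKO 6. All libraries: the 2 members called became 0 without depth class as a term, 6 with no count filter, 0 with a stricter filter, 5 with DESeq2 and 12 without the 4 libraries that lay apart. Genes called went from 52 to 1, 359, 23, 390 and 617 under the same settings and to 101 with limma-voom. Leaving out 1 library gave 0 to 5 members (0 for control 1 to 5 and scKO 3 and 6 to 9, 1 for control 6 and 9 and scKO 2 and 5, 5 for scKO 1), 11 to 216 genes and member medians of 0.08 to 0.23. Other sarcomere genes called, 0, became 2 with no count filter, 1 with DESeq2, 6 without the 4 libraries and 0 to 1 with 1 library left out. Shallow libraries: 3 genes were called, 13 with no count filter, 6 with DESeq2, 0 without the 4 libraries and 1 to 5 with 1 left out, and members stayed at 0. The difference between classes gave 0 members, 1 with no count filter (Lmod2), 1 with DESeq2 (Tcap) and 0 in each fit with 1 library left out.

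Numbers in the labels were not shown to pair the libraries: same-numbered pairs correlated by -0.07 to 0.25, 5 of 9 over 0.1, and 2 of 9 libraries correlated best with their own number. With the replicate block, 0 members and 14 genes were called with all libraries, and signs turned for Lmod2 (-0.070), Myoz2 (-0.20) and Des (0.0037); in shallow libraries they turned for Klhl40 (0.12), Actn3 (0.22), Ldb3 (0.20), Nrap (0.044), Pdlim3 (0.086), Actc1 (0.083), Neb (0.17), Synpo2l (0.12) and Tpm2 (0.035). No paired analysis was possible in the deep class because its groups share no number.

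In the all-library and shallow fits, the log2 fold changes that turned sign missed the threshold in both fits compared. With all libraries and no depth class they were Klhl40 (-0.17), Actn3 (-0.016), Pdlim3 (-0.068), Csrp3 (-0.19), Acta1 (-0.050), Neb (-0.11), Obsl1 (-0.050) and Synpo2l (-0.14); with corrected counts, Des (0.0062) and Tpm2 (0.067); with DESeq2, Lmod2 (-0.034); with limma-voom, Mybph (0.042) and Actn2 (0.0097); without the 4 libraries, Ttn (0.16), Mybph (0.21), Actn2 (0.14), Trim54 (-0.048), Smyd1 (0.035), Actc1 (0.069), Des (0.20) and Tpm2 (0.13). In shallow libraries without the 4 they were Lmod2 (0.0455), Klhl40 (0.17), Ttn (0.094), Actn3 (0.27), Ldb3 (0.24), Nrap (0.39), Pdlim3 (0.14), Unc45b (-0.060), Actc1 (0.19), Des (0.26), Neb (0.17), Synpo2l (0.0093) and Tpm2 (0.17). Shallow Ldb3 was 0.012 with median-of-ratios scaling, 0.043 with no filter, 0.0014 with a stricter filter, 0.015 with DESeq2, 0.026 with limma-voom and 0.0081 with corrected counts; Actn3 was 0.017 with no filter and 0.0018 with limma-voom, and Nrap 0.0012 and 0.066. Shallow Actc1 was 0.0099 with corrected counts, and Synpo2l lay between 0.00027 and 0.026 with median-of-ratios scaling, DESeq2, corrected counts and no filter. With 1 library left out, all-library ranges of the 26 named members that crossed 0 were -0.0022 to 0.40 for Lmod2, -0.19 to 0.0021 for Ttn, -0.19 to 0.034 for Mybph, -0.17 to 0.043 for Actn2, -0.060 to 0.12 for Csrp3 and -0.043 to 0.18 for Trim54. Shallow ranges were -0.16 to 0.049 for Klhl40, -0.048 to 0.16 for Tcap, -0.094 to 0.088 for Actn3, -0.046 to 0.087 for Ldb3, -0.15 to 0.10 for Nrap, -0.18 to 0.020 for Pdlim3, -0.25 to 0.083 for Trim54 and -0.049 to 0.15 for Unc45b. Of the other 9, 4 crossed 0 with all libraries (reversed values of -0.090 to 0.024) and 3 in shallow libraries (0.0011 to 0.038). The cause of these changes was not tested. Shallow depth limits low members: 4 could not be tested there.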
